A study of Mus musculus with 72 samples.

Results

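The cytosolic ribosomal proteins were examined in 2 skeletal muscles of mice that lacked the clock gene Bmal1 in muscle fibres and of their littermates, over 6 times of the day. Members were the named probe sets whose symbol has the Rpl or Rps form with a number, Rplp0, Rplp1, Rplp2 and Rpsa. Rps6k kinases and symbols ending in -ps were left out. There were 42 such genes among 20239 named genes, 24 of the large subunit and 18 of the small subunit, each with 1 probe set. RefSeq annotates 40 of them as protein coding and 2, Rps4l and Rps3a3, as pseudogenes, which stayed in because the choice was made by symbol. The set is part of the cytosolic ribosome, not the whole: Rpl3, Rpl5, Rpl7, Rpl10, Rpl11, Rpl19, Rpl22l1, Rpl32, Rpl39, Rps4x, Rps18 and Rps29 were not analysed here. Probe positions are not given in the sources used here. Signal from processed pseudogenes or near-identical copies, which are many for ribosomal proteins, therefore cannot be told apart from the gene's own.

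The knockout (mKO) was made by crossing floxed Bmal1 mice with mice that carry Cre under the Mlc1f promoter, a fast myosin light chain promoter active in muscle fibres. The controls (Ctrl) were Cre-negative littermates, so Cre activity and the loss of Bmal1 cannot be told apart. All 36 animals were C57BL/6 males, 5 months old, fed chow freely, in a light phase from ZT0 and a dark phase from ZT12. Slow muscle was represented by the soleus (SOL) and fast muscle by the tibialis anterior (TA), which were taken from the same animals at ZT0, ZT4, ZT8, ZT12, ZT16 and ZT20, with 3 animals per genotype and time. The 72 Affymetrix whole-transcript arrays thus form 24 groups of 3. Values are log2 signals throughout, a difference of 1 meaning 2-fold, and a gene is called where its p from limma, with the Benjamini-Hochberg adjustment over the 20239 genes, was under 0.05. In whole muscle, fewer cells of a type and less RNA per cell cannot be told apart.

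Each ribosome carries 1 copy of nearly every ribosomal protein, and cells make these proteins in matched amounts. Much of that control acts on translation: the mRNAs begin with a run of pyrimidines, the 5′ terminal oligopyrimidine or TOP motif, which lets the kinase mTORC1 turn their translation up or down together without a change in mRNA level. Some members have paralogues with a restricted pattern, such as Rpl3l, the striated-muscle counterpart of Rpl3, and Rps27l, a p53-inducible counterpart of Rps27. Arrays measure mRNA only, so loading onto ribosomes was not analysed here.

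The sequences around the start sites of 9 members are given because the results below turn on these genes. They also show where a pyrimidine run was found, a feature of many members that the choice by symbol did not use. Windows of 300 bases, 250 before the annotated start and 50 after it, were matched by gene identifier in RefSeq (GRCm38.p6) for 34 of the 42 members. A gene with several windows was counted if any of them held the feature. Of the genes shown, Rpl3l, Rps21 and Rps27l have 2 windows each, and the one with the most 5′ start is shown. A run of at least 7 bases of C or T on the gene's strand that lay on the start or within 5 bases of it occurred in 19 of the 34 (55.9%), against 15.7% of 27025 genes. The lines below each show 45 bases before the start and 25 from it on, 5′ to 3′ on the gene's strand, with that run in capitals. The first 4 have no such run, and the last 5 have runs of 14, 7, 9, 20 and 9 bases. The runs of Rpl4 and Rps27l lie wholly before the annotated start, so outside the mRNA as annotated. Whether the annotated starts are those used in muscle was not tested. A run near the start, or the lack of one, therefore does not settle whether an mRNA has a TOP motif.
Rpl3l, chr17:24727781-24727850, plus strand: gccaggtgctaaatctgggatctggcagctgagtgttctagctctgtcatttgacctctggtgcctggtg
Rpl7l1, chr17:46782632-46782701, minus strand: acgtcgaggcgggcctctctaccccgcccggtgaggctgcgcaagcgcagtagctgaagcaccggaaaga
Rpl6, chr5:121204456-121204525, plus strand: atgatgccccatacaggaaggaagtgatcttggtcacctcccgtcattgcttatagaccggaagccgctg
Rplp0, chr5:115559422-115559491, plus strand: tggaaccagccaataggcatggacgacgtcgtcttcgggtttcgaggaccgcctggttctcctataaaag
Rpl4, chr9:64173342-64173411, plus strand: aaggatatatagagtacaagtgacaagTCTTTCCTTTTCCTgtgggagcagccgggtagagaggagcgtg
Rps21, chr2:180257334-180257403, plus strand: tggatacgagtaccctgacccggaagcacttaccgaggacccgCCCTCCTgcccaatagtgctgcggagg
Rps27, chr3:90213624-90213693, minus strand: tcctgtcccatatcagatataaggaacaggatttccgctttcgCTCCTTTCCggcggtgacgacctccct
Rpl27a, chr7:109519150-109519219, plus strand: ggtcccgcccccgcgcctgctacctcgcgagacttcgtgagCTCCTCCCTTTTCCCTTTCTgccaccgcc
Rps27l, chr9:66946041-66946110, plus strand: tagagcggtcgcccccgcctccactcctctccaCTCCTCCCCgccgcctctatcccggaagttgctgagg

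The E-box CACGTG, the element that the Bmal1 and Clock pair binds, was searched on both strands of the same windows. It was found in 5 of 34 members (14.7%), Rpl13a, Rpl14, Rpl23, Rpl34 and Rps19, against 8.09% of all genes. The ETS-type letters CCGGAAG occurred in 16 of 34 (47.1%), against 9.93%. These matches describe letters in a window and do not show that a factor binds there.

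Facts of the whole series that bear on the values are few. Bmal1 is listed on the array as Arntl. Its mean did not differ between genotypes past the threshold in SOL (0.092, adjusted p = 0.508, limma) or TA (-0.072, adjusted p = 0.465). Its daily amplitude, the distance from mean to peak, was 1.34 in Ctrl and 0.59 in mKO in SOL, and 1.09 and 0.33 in TA, with limma's adjusted p of the difference 1.33e-05 and 1.70e-05. How its probes and the floxed part are placed is not stated, so the mean level is no check of the deletion. The fibre labels held: the median signal of slow myosin Myh7 was 13.2 in SOL and 7.06 in TA, and that of fast myosin Myh4 was 11.8 and 13.7. The TA array of Ctrl ZT0 replicate A carried liver transcripts, with a mean over 10 liver markers of 10.8 against 4.97 to 7.75 on the other arrays. Its mean over the 42 members was 8.65, and those of the other 2 arrays of its group were 8.58 and 8.64. On it, 6 of the 42 members lay outside the range of all other TA arrays. The share of all genes that did so was not counted, and a link with the liver transcripts was not tested. The animals' identification numbers fall into the series BM3 (23 animals), BM2* (7) and BM2 (6), whose meaning the labels do not give. These series are unevenly spread over genotypes and times, so values within a series are given beside the genotype results. At ZT20 all mKO animals were BM2 and all Ctrl animals BM3, so genotype and series cannot be told apart at that time. No animal at ZT12 was BM3.

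The mean level of the family differed little across muscle, genotype and time. The mean of the 42 members on an array ran from 8.50 to 8.72 over all 72 arrays, and the means of the 24 groups from 8.57 to 8.64. Over the day it was 8.60 ± 0.047 in SOL of Ctrl, 8.59 ± 0.054 in SOL of mKO, 8.62 ± 0.042 in TA of Ctrl and 8.62 ± 0.047 in TA of mKO (SD, n = 18 each). The 4 sets of 18 arrays overlap, and no test was made on this mean. Within groups, the median correlation of a pair of members over the 72 arrays, which hold both muscles of each animal, was 0.058. The 10th percentile was -0.204 and the 90th 0.303 over 861 pairs. All pairs share the same arrays and normalisation, so these values are descriptive. Pairs of other genes were not examined, so it is not known whether the members differ from the array in this.

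**Figure D1:**
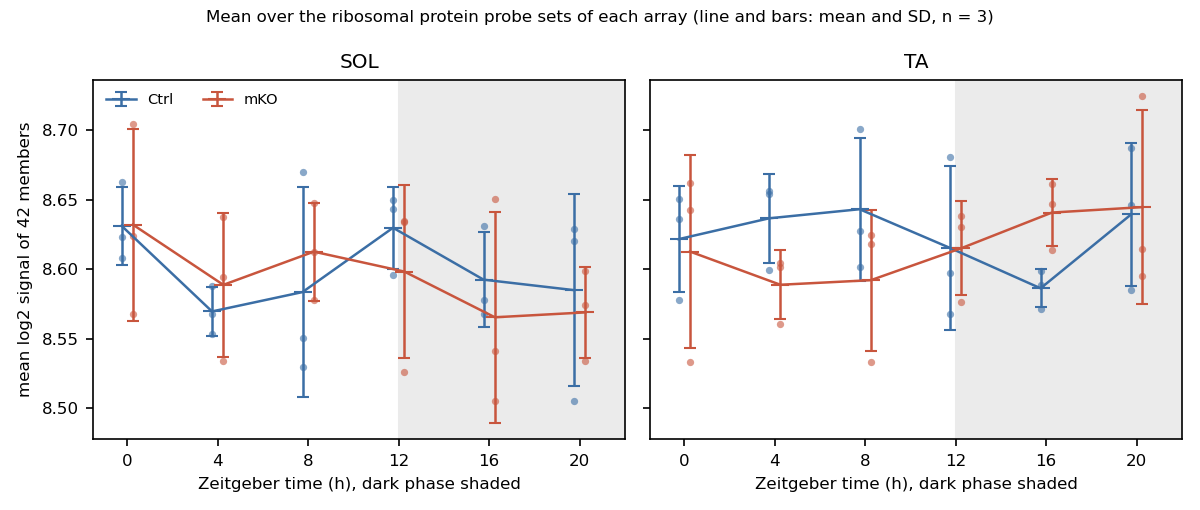
Mean log2 signal of the 42 cytosolic ribosomal proteins on each array, by Zeitgeber time, in SOL and TA of Ctrl and mKO (n = 3 per group and time). Points are arrays and lines and bars the mean and SD; all 72 arrays lie between 8.50 and 8.72, and the genotypes overlap at every time except ZT16 in TA, where mKO runs from 8.61 to 8.66 and Ctrl from 8.57 to 8.60.

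Members differed in how tightly they were measured. The SD between animals of a group had a median of 0.178 over members and 0.148 over all genes, and ran from 0.075 for Rpl3l to 0.584 for Rps24. The 33 members at or above the median signal of all genes, 6.75, had a median SD of 0.148, and the 9 dimmer ones had SDs of 0.150 to 0.584 with a median of 0.316. Rpl3l, Rpl4, Rpl7l1, Rplp0 and Rps3 were among the tightest 5% of all genes, and 6 members were among the loosest 5%. The 3 members called lower in mKO below, Rpl3l, Rpl4 and Rpl7l1, are among these 5.

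In SOL, a single member, Rpl3l, fell in mKO and no member rose. Rpl3l, the muscle-restricted paralogue that takes the place of Rpl3 in mature fibres, had signals in SOL of 10.54 at the lowest, 10.65 at the median and 10.80 at the highest of 18 Ctrl arrays, and of 10.29, 10.58 and 10.74 in mKO. The ranges overlap: 15 of 18 mKO arrays lay below the Ctrl median and 7 below every Ctrl array. The mean was lower in mKO at 6 of 6 times, and the difference was -0.10 ± 0.030 (SE, limma adjusted p = 0.0333), or 1.07-fold. Rpl3l was 1 of 42 members called, where 7.10% of all genes were called, 3.54% lower and 3.56% higher. The call did not hold after leaving out any 1 of 12 animals (-0.099 to -0.088, adjusted p from 0.0510 to 0.0644). These were Ctrl ZT0 A, ZT4 B, ZT8 B, ZT12 C, ZT16 C and ZT20 A, and mKO ZT0 B, ZT4 C, ZT8 C, ZT12 C, ZT16 A and ZT20 B. It also ended after subtracting each array's median (adjusted p = 0.0517). Within BM3 animals, 9 Ctrl and 11 mKO, the difference was -0.051, and within BM2 and BM2* animals, 4 and 4, it was -0.11, neither past the threshold. In SOL, 3 of 6 slow-fibre markers were also called lower in mKO (median of the list -0.072). Of 6 fast-fibre markers 1 was higher and 1 lower, as of 8 fibroblast and tendon markers. Of 7 endothelial markers 1 was higher, and of 2 Schwann-cell markers 1 was lower. The other lists held no call. In TA, 1 of 6 slow-fibre markers was higher in mKO and 0 lower. The part of these cells in the result was not tested.

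The other SOL values place bounds on what could have been missed. The median member differed by 0.0036, 21 of 42 were higher in mKO, and the values ran from -0.15 to 0.17. The 95% interval lay within 0.25 on either side of 0 (1.19-fold) for 33 of 42 members, against 89.7% of all genes, and within 0.5 for all 42. After Rpl3l, the smallest p-values belonged to Rps27l (0.098, limma adjusted p = 0.0998), Rplp0 (0.070, adjusted p = 0.200), Rpl35a (0.17, adjusted p = 0.227) and Rpl4 (-0.071, adjusted p = 0.318), none past the threshold. Unadjusted p-values were under 0.05 for 4 members, and the share of all genes at that threshold was not counted.

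In TA, 3 large-subunit genes fell slightly and 1 small-subunit gene rose. Rpl3l, Rpl4 and Rpl7l1 were lower in mKO and Rps21 was higher, so that 4 of 42 members (9.52%) were called where 14.8% of all genes were, with 8.06% of all genes called lower and 6.76% called higher. The members' share lies below the background in both muscles, which describes the set and is no test of it.

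Rpl4, a core large-subunit protein with a long loop that reaches into the exit tunnel, had signals in TA of 10.82, 10.93 and 11.06 (lowest, median and highest of 18 arrays) in Ctrl and 10.66, 10.82 and 10.94 in mKO. Of the mKO arrays, 17 of 18 lay below the Ctrl median and 9 below every Ctrl array, and the mean was lower at 6 of 6 times. The difference was -0.11 ± 0.027 (limma adjusted p = 0.00514), or 1.08-fold.

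Rpl3l in TA ran through 10.89, 10.98 and 11.09 in Ctrl and 10.72, 10.86 and 11.05 in mKO. Here 17 of 18 mKO arrays were below the Ctrl median and 12 below every Ctrl array, again at 6 of 6 times, and the difference was -0.11 ± 0.029 (limma adjusted p = 0.00936). It was the 1 member called in both muscles, with nearly the same size in each.

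Rpl7l1, a paralogue of Rpl7 known from ribosome assembly in the nucleolus, had TA signals of 10.21, 10.39 and 10.51 in Ctrl and 10.11, 10.28 and 10.54 in mKO. The groups overlap: 15 of 18 mKO arrays were below the Ctrl median, 5 below every Ctrl array and 1 above every one. The mean was lower at 6 of 6 times. The difference was -0.093 ± 0.029 (limma adjusted p = 0.0275), and the call ended without mKO ZT4 A (adjusted p = 0.0528).

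Rps21, a protein of the small subunit, had TA signals of 7.35, 7.51 and 7.94 in Ctrl and 7.29, 7.80 and 8.24 in mKO. The mKO arrays spread wider than the Ctrl arrays: 14 of 18 lay above the Ctrl median and 6 above every Ctrl array. The mean was higher in mKO at 6 of 6 times and the difference was 0.23 ± 0.070 (limma adjusted p = 0.0201), or 1.18-fold. Of the 4 genes, Rpl4 and Rps21 have the pyrimidine run shown above, that of Rpl4 before the annotated start, and Rpl3l and Rpl7l1 do not.

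Within the identification series these differences kept their sign without passing the threshold. Among BM3 animals they were -0.12 for Rpl3l, -0.11 for Rpl4, -0.070 for Rpl7l1 and 0.26 for Rps21. Among BM2 and BM2* animals they were -0.034, -0.12, -0.18 and 0.11 in the same order. The same 4 genes are drawn array by array in the plot of 4 members.

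**Figure D2:**
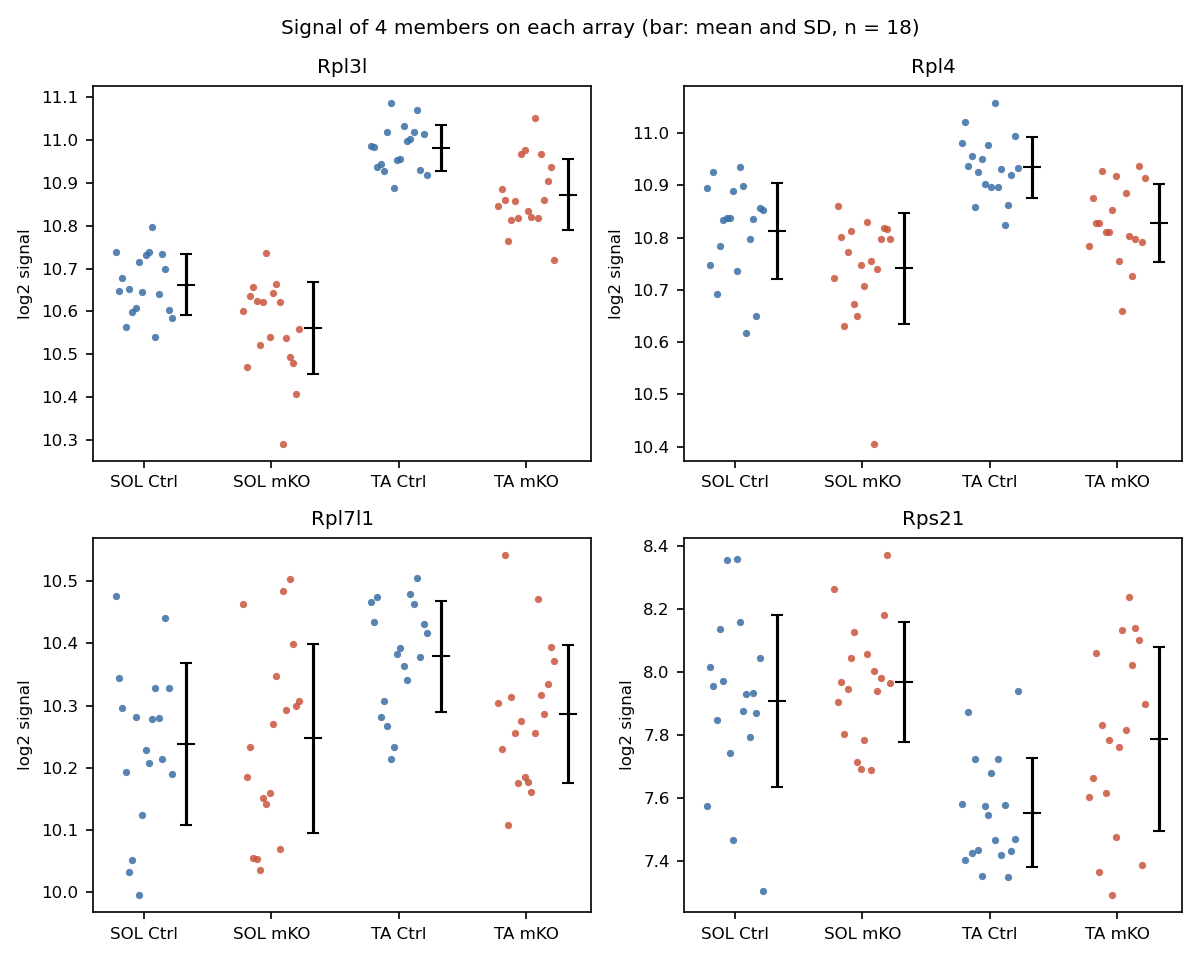
Log2 signal of Rpl3l, Rpl4, Rpl7l1 and Rps21 on every array of SOL and TA in Ctrl and mKO, with points in order of time and bars for the mean and SD (n = 18). In TA, 12 of 18 mKO points of Rpl3l and 9 of 18 of Rpl4 lie below every Ctrl point, and those of Rps21 spread up to 8.24.

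Among members not called in TA, Rplp0, the stalk protein often used as a reference gene, came nearest (0.084, limma adjusted p = 0.0624). Rpl37 (-0.20, adjusted p = 0.170), Rpl39l (-0.12, adjusted p = 0.174), Rpl14 (0.13, adjusted p = 0.175) and Rpsa (-0.21, adjusted p = 0.184) followed. The median member differed by -0.015, and 19 of 42 were higher in mKO. An unadjusted p under 0.05 was found for 9 members, and the share of all genes at that threshold was not counted. The 95% intervals lay within 0.25 of 0 for 33 members, against 80.5% of all genes, and within 0.5 for 41.

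**Figure D3:**
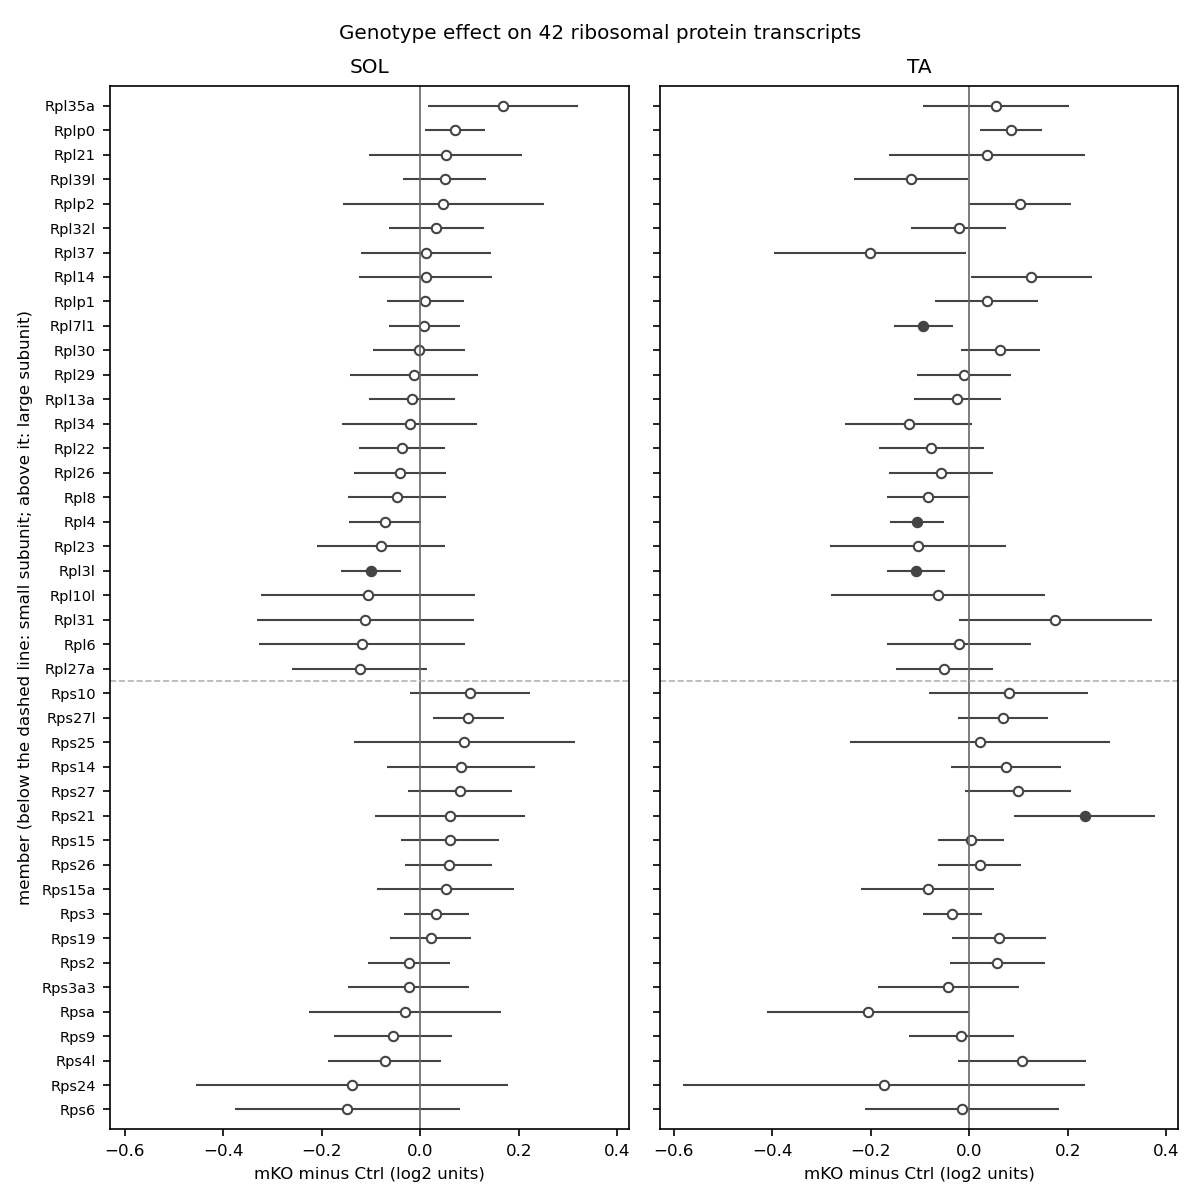
Difference mKO minus Ctrl in log2 signal for each of the 42 members in SOL and TA (points, with 95% intervals, n = 18 animals per genotype), large subunit above the dashed line and small subunit below it. Filled points passed limma's adjusted p of 0.05: Rpl3l in SOL (-0.10), and Rpl4 (-0.11), Rpl3l (-0.11), Rpl7l1 (-0.093) and Rps21 (0.23) in TA.

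The difference of the genotype effects between the muscles was tested on TA minus SOL within animals, and no member passed, where 2.71% of all genes did. The 3 members with the smallest p were Rpl39l (-0.17, limma adjusted p = 0.131), Rpl31 (0.29, adjusted p = 0.278) and Rpl7l1 (-0.10, adjusted p = 0.405), the only ones with an unadjusted p under 0.05. Of these, Rpl39l was dim, with a mean signal of 4.12 that may lie near background. Calls of Rpl4, Rpl7l1 and Rps21 in TA and not in SOL are thus not shown to differ between the muscles.

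At single times, with 3 animals per genotype, calls were made at ZT16 in TA only, 4 h into the dark phase. There 2 of 42 members were higher in mKO, where 2.02% of all genes were called and 1.05% were higher and 0.968% lower. Rps21 was 8.24, 8.02 and 8.14 in the 3 mKO animals and 7.42, 7.58 and 7.35 in the 3 Ctrl animals, with no overlap and a difference of 0.68 ± 0.17 (limma adjusted p = 0.0247). Rpl6, a protein of the large subunit, was 8.11, 8.12 and 8.21 in mKO and 7.46, 7.48 and 7.57 in Ctrl, a difference of 0.64 ± 0.17 (adjusted p = 0.0488). Both sets of 3 stood apart. At this time all 3 mKO animals were BM3, while 1 Ctrl animal was BM3 and 2 were BM2*. With the series as a covariate the values were 0.70 for Rps21 (adjusted p = 0.0838) and 0.45 for Rpl6 (adjusted p = 0.407). Leaving out 1 of 36 animals ended the Rps21 call in 4 cases, Ctrl ZT16 A and C and mKO ZT16 A and C (adjusted p from 0.0828 to 0.128), and the Rpl6 call in 27 (adjusted p from 0.0503 to 0.172). The Rpl6 call held only without Ctrl ZT4 A, ZT8 A, B or C, ZT20 B or C, or mKO ZT0 C, ZT20 B or C. Subtracting array medians ended it too (adjusted p = 0.0625). The next member was Rps27 (0.33, adjusted p = 0.311).

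No member was called at the other 11 combinations of muscle and time. With array weights 2 were called at SOL ZT16, 5 at TA ZT8 and 2 at TA ZT12. The shares of all genes called with these weights at single times are not given here, so those counts have no background beside them. In SOL, 0.553%, 0.440%, 0.860%, 0.751%, 0.944% and 1.04% of all genes were called from ZT0 to ZT20, and in TA 1.63%, 1.67%, 2.03%, 2.52% and 1.99% at ZT0, ZT4, ZT8, ZT12 and ZT20. The member with the smallest p in SOL was Rpl35a at ZT0 (0.37, limma adjusted p = 0.748), Rpl21 at ZT4 (0.40, adjusted p = 0.788), Rps27l at ZT8 (0.20, adjusted p = 0.386) and ZT12 (0.20, adjusted p = 0.579), Rpl3l at ZT16 (-0.20, adjusted p = 0.360) and Rps21 at ZT20 (0.43, adjusted p = 0.486). In TA it was Rpl4 at ZT0 (-0.15, limma adjusted p = 0.305) and ZT12 (-0.18, adjusted p = 0.178), Rpl32l at ZT4 (-0.27, adjusted p = 0.419), Rps6 at ZT8 (-0.58, adjusted p = 0.352) and Rplp0 at ZT20 (0.19, adjusted p = 0.303). The ZT20 values compare BM2 mKO animals with BM3 Ctrl animals, so genotype and series cannot be told apart in them. With 3 animals a side these tests are coarse. The 95% interval lay within 0.25 of 0 for 4 to 9 of the 42 members, depending on muscle and time, against 14.2% to 21.3% of all genes.

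Daily rhythm was called for few members, as for few genes of the array. By limma's moderated F test, a 24 h cosine passed for 0 members in SOL of Ctrl (6.05% of all genes) and 1 in SOL of mKO (5.68%). It passed for 1 in TA of Ctrl (2.70%) and 0 in TA of mKO (1.76%). The median amplitude of the members was 0.078, 0.081, 0.063 and 0.067 in that order, and that of all genes was 0.068, 0.077, 0.065 and 0.065. At an unadjusted p under 0.05 there were 6 members in SOL of Ctrl and 6 in TA of mKO. The share of all genes at that unadjusted threshold was not counted, so these counts have no background beside them.

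Rpl7l1 was the member called in SOL of mKO. Its mean there was 10.29 at ZT0, 10.05 at ZT4, 10.15 at ZT8, 10.23 at ZT12, 10.43 at ZT16 and 10.34 at ZT20 (n = 3 each). The high point lay in the dark phase, with a fitted peak at ZT17.7 and an amplitude of 0.16 (limma adjusted p = 0.0116), and the call held in 36 of 36 fits that each left out 1 animal. An F test of any difference among the 6 times, in place of the cosine, called 0 members here. The same gene did not pass elsewhere, although its fitted peak fell at a like time: ZT19.5 in SOL of Ctrl (0.12, adjusted p = 0.126), ZT18.8 in TA of Ctrl (0.097, adjusted p = 0.147) and ZT20.3 in TA of mKO (0.10, adjusted p = 0.138). A rhythm limited to mKO is not shown, since the difference between genotypes did not pass.

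Rpl6 was the member called in TA of Ctrl. Its mean was 8.20, 8.08, 8.27, 7.74, 7.50 and 8.02 from ZT0 to ZT20 in Ctrl, and 7.84, 7.88, 7.85, 7.87, 8.15 and 8.10 in mKO. It was high in the light phase and low around ZT16 in Ctrl, with an amplitude of 0.31 and a fitted peak at ZT3.23 (limma adjusted p = 0.0364). The mKO fit had an amplitude of 0.15 (adjusted p = 0.656), and the test of the difference gave 0.44 with an adjusted p of 0.343. The Ctrl call ended in 10 of 36 fits without 1 animal (adjusted p from 0.0506 to 0.119), those without Ctrl ZT0 A, B or C, ZT4 B, ZT12 B or C, ZT16 A, B or C, or ZT20 C. The first of these is the animal with liver transcripts. It ended as well with array weights (adjusted p = 0.0710) and with the identification series as a covariate (amplitude 0.25, adjusted p = 0.222), and the F test of any difference among the 6 times called 0 members in TA of Ctrl.

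The members nearest to a call were Rpl14 (amplitude 0.19, limma adjusted p = 0.161) and Rps2 (0.12, adjusted p = 0.170) after Rpl7l1 in SOL of Ctrl. In TA of mKO they were Rps21 (0.25, peak ZT16.7, adjusted p = 0.128), then Rpl7l1 as given above, and Rps27 (0.19, peak ZT17.4, adjusted p = 0.148). Differences in rhythm between genotypes passed for 0 members in SOL (0.0395% of all genes) and 0 in TA (0.104%), by limma. At an unadjusted p under 0.05 there were 4 members in SOL and 3 in TA, again without a counted share of all genes. In SOL the smallest adjusted p was 0.946, shared by Rps21, Rpl21, Rps2 and Rpl14. In TA, Rps6 (0.52, adjusted p = 0.466) and Rpl29 (0.21, adjusted p = 0.984) followed Rpl6.

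**Figure D4:**
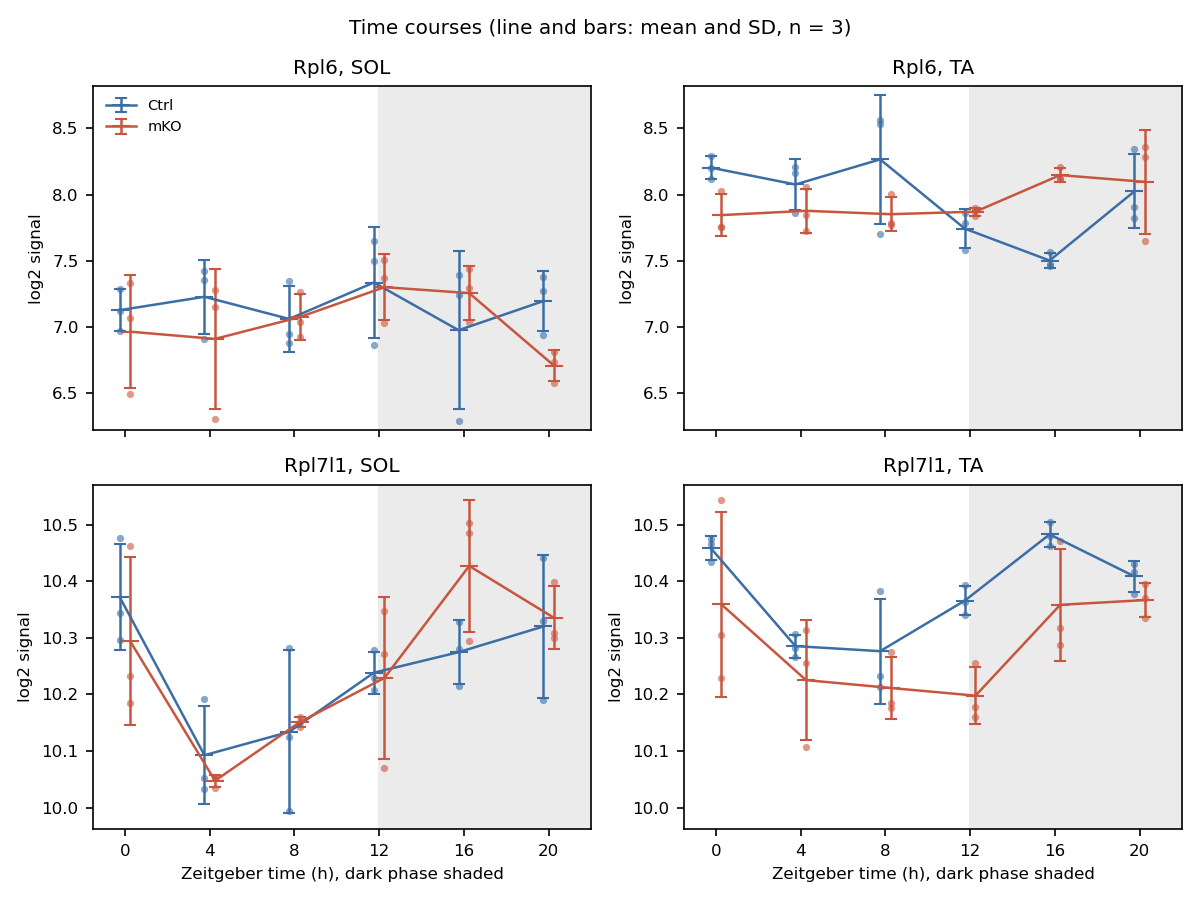
Log2 signal of Rpl6 and Rpl7l1 against Zeitgeber time in SOL and TA, with lines for the mean and bars for the SD of 3 animals per genotype and time. In TA the Ctrl mean of Rpl6 falls to 7.50 at ZT16 where that of mKO is 8.15, and Rpl7l1 in SOL of mKO peaks at 10.43 at ZT16.

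The muscles differed in more members than the genotypes did, with a few genes far apart and most of the family close. In Ctrl, TA minus SOL within animals passed for 14 of 42 members (33.3%), 9 higher in TA and 5 lower, where 42.9% of all genes passed, 22.9% higher and 20.0% lower. In mKO, 14 of 42 passed (33.3%), 7 higher and 7 lower, where 48.2% of all genes passed, 27.8% higher and 20.4% lower. The median member differed by -0.021 in Ctrl and -0.0064 in mKO. In these tests 9 members were called in both genotypes, all with the same sign, and 10 in a single genotype. The same overlap over all genes was not counted, so it is not known whether the members differ from the array in this.

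Rpl6 differed most in size. In Ctrl its signal was 6.29, 7.26 and 7.65 (lowest, median and highest of 18 arrays) in SOL and 7.46, 7.88 and 8.56 in TA, and in mKO 6.30, 7.05 and 7.51 in SOL and 7.65, 7.89 and 8.36 in TA. TA was higher in 18 of 18 animals of either genotype, and in mKO the ranges did not overlap. The difference was 0.81 ± 0.088 in Ctrl (1.76-fold, limma adjusted p = 3.03e-09) and 0.91 ± 0.088 in mKO (1.88-fold, adjusted p = 2.73e-10).

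The paralogues Rpl3l and Rps27l were also higher in the fast muscle. Rpl3l rose from the SOL levels given above by 0.32 ± 0.031 in Ctrl (limma adjusted p = 3.22e-10) and 0.31 in mKO (adjusted p = 5.38e-10), in 18 of 18 animals of each genotype, and the Ctrl ranges of the muscles did not overlap. Rps27l, the p53-inducible paralogue of Rps27, had Ctrl signals of 10.11, 10.24 and 10.53 in SOL and 10.37, 10.63 and 10.79 in TA. It was higher in TA in 18 of 18 Ctrl animals by 0.37 ± 0.039 (adjusted p = 2.35e-09) and in 17 of 18 mKO animals by 0.34 (adjusted p = 1.21e-08). Its parent Rps27, a zinc-finger protein of the small subunit, was higher in TA by 0.16 in Ctrl (adjusted p = 0.0118) and 0.18 in mKO (adjusted p = 0.00498).

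Other members higher in TA were Rpl27a, by 0.25 in Ctrl (limma adjusted p = 0.00314) and 0.32 in mKO (adjusted p = 0.000203), and Rpl4, by 0.12 (adjusted p = 0.00221) and 0.087 (adjusted p = 0.0255). Rpl27a has the longest pyrimidine run of the sequences shown. Rpl7l1 passed in Ctrl (0.14, adjusted p = 0.00108), as did Rpl35a (0.23, adjusted p = 0.00648) and Rpl39l (0.13, adjusted p = 0.0102), and Rps4l passed in mKO (0.20, adjusted p = 0.0165). Rpl39l had a mean signal of 4.12, above that of only 7.35% of all genes, so its values may lie near background. The mKO call of Rpl4 ended without mKO ZT4 A, ZT12 C or ZT16 A, and that of Rps4l without mKO ZT0 C.

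Rplp0, the scaffold of the acidic stalk that recruits elongation factors and a common reference gene, was lower in TA. Its Ctrl signal was 11.94, 12.11 and 12.24 in SOL and 11.83, 11.91 and 12.04 in TA, and its mKO signal 12.04, 12.19 and 12.34 in SOL and 11.85, 12.01 and 12.18 in TA. The ranges overlap, but TA was lower in 17 of 18 animals of each genotype, with differences of -0.19 ± 0.027 in Ctrl (limma adjusted p = 1.06e-06) and -0.17 in mKO (adjusted p = 3.86e-06). Its stalk partners Rplp1 (0.023 in Ctrl, 0.047 in mKO) and Rplp2 (-0.091, -0.035) did not pass. Rpl13a, the other reference gene measured here, was also lower in TA, at -0.13 in both Ctrl (adjusted p = 0.00813) and mKO (adjusted p = 0.00477).

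Rps21 was lower in TA of Ctrl, at -0.35 ± 0.077 (limma adjusted p = 0.000331), in 15 of 18 animals, and -0.18 in mKO did not pass (adjusted p = 0.0548). Rpl8, a core protein near the catalytic centre, was lower as well, at -0.13 in Ctrl (adjusted p = 0.0329) and -0.16 in mKO (adjusted p = 0.00569). Rps19, a small-subunit protein mutated in Diamond-Blackfan anaemia, was lower in Ctrl (-0.11, adjusted p = 0.0388). Its direction was not kept in the smaller series: it was -0.24 among BM3 animals (adjusted p = 0.00432) and 0.11 among BM2 and BM2* animals (adjusted p = 0.520). Leaving out 1 of 36 animals ended the Ctrl call of Rpl8 in 5 cases (Ctrl ZT4 A, ZT8 A, ZT12 A, ZT16 A and ZT20 A). It ended that of Rps19 in 9 (Ctrl ZT0 B and C, ZT4 C, ZT8 A and B, ZT12 B, ZT16 A, and ZT20 A and B), and subtracting array medians ended both (adjusted p = 0.0725 and 0.0663).

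In mKO alone, Rps3 at the mRNA entry of the small subunit was lower in TA, at -0.14 ± 0.029 (limma adjusted p = 0.000241), in 17 of 18 animals. Its Ctrl value of -0.070 missed the threshold (adjusted p = 0.0555). Rpl37 (-0.25, adjusted p = 0.0109), Rpl22 (-0.15, adjusted p = 0.0162) and Rps15a (-0.19, adjusted p = 0.0402) completed the list. Rpl22 was -0.11 in Ctrl (adjusted p = 0.0847), and its mKO call ended without mKO ZT16 C. Rps15a lost its call in 12 of 36 fits without 1 animal, those without mKO ZT0 A or B, ZT4 A, B or C, ZT8 B or C, ZT12 B or C, ZT16 C, or ZT20 A or B (adjusted p from 0.0510 to 0.140), and with array weights (adjusted p = 0.0566). Without mKO ZT16 C its value was -0.12. As said above, no member's tissue difference was shown to differ between genotypes.

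**Figure D5:**
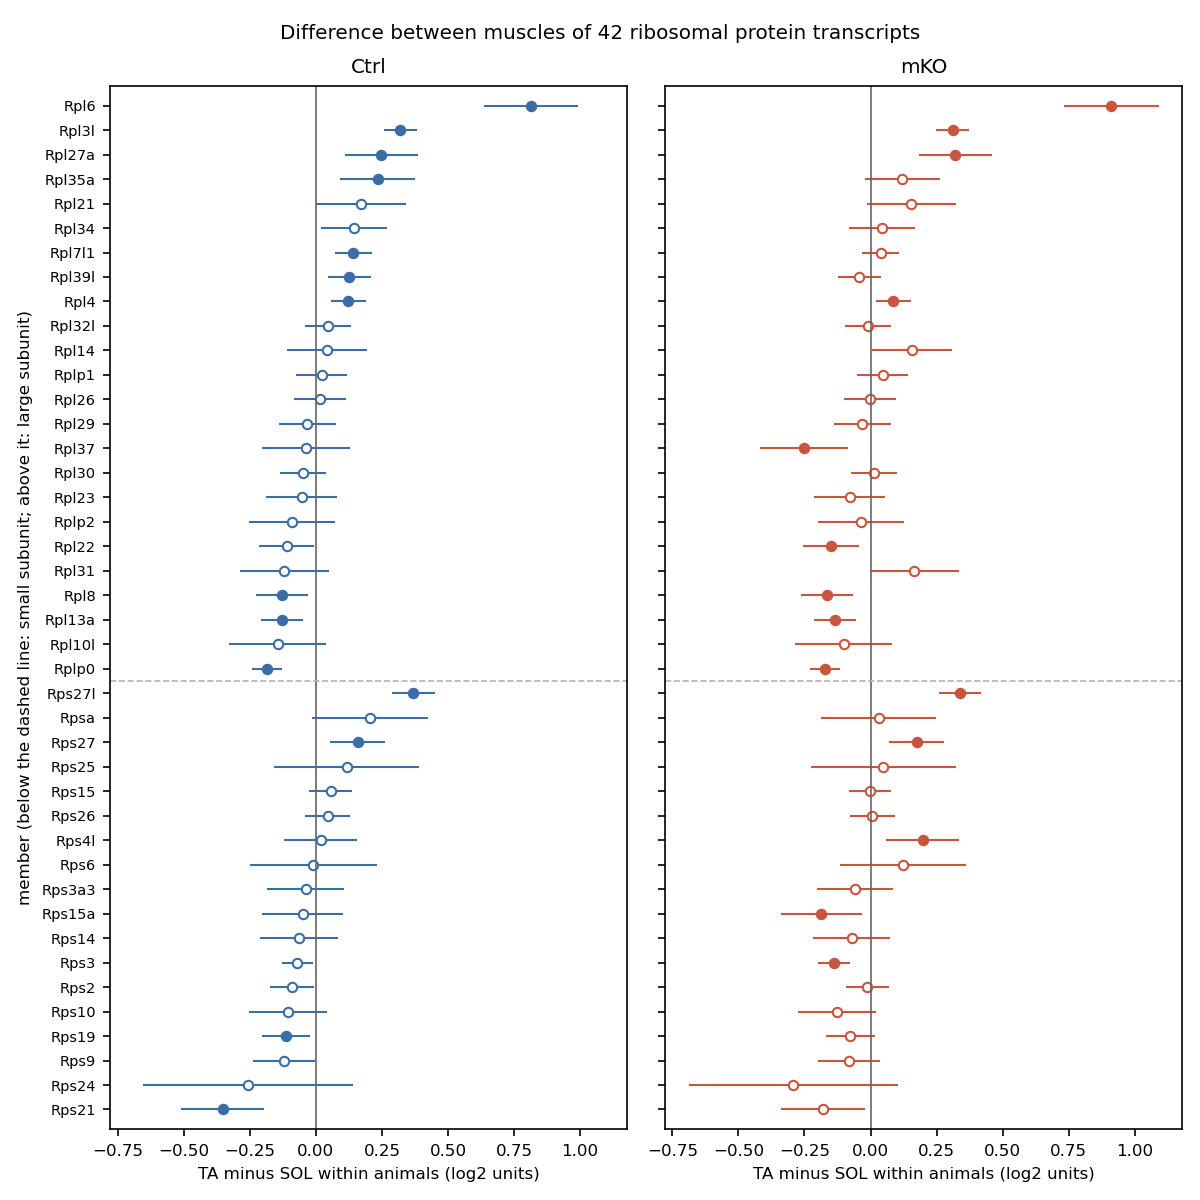
Difference TA minus SOL within animals in log2 signal for each of the 42 members, in Ctrl and mKO (points, with 95% intervals, n = 18 animals each), large subunit above the dashed line and small subunit below it. Filled points passed limma's adjusted p of 0.05. Rpl6 stands farthest to the right at 0.81 and 0.91, and Rplp0 lies to the left at -0.19 and -0.17.

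Markers of several cell types also differed between the muscles, in both directions. In Ctrl, 6 of 6 slow-fibre markers were lower in TA (median -6.23) and 6 of 6 fast-fibre markers higher (0.90). All 5 measured adipocyte markers were lower in TA: their mean signal ran from 6.47 to 8.00 in SOL and from 6.20 to 6.70 in TA of Ctrl. Of 7 endothelial markers 4 were lower, of 8 fibroblast and tendon markers 5 were lower and 1 higher, and of 6 macrophage markers 3 were lower. Of 4 smooth-muscle markers 2 were higher, as were 2 of 10 liver markers. Of 4 satellite-cell markers 2 were lower, as were 1 of 2 Schwann-cell markers and 1 of 5 lymphocyte and granulocyte markers. Of 2 erythroid markers 0 were called. The endothelial mean ran from 8.76 to 9.25 in SOL and from 8.67 to 9.07 in TA, the fibroblast and tendon mean from 9.16 to 9.85 and from 8.67 to 9.40, and the macrophage mean from 6.99 to 7.59 and from 6.76 to 7.82. The part of these cells in the members' tissue differences was not tested.

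Of the remaining members with a known special role, none passed a test of level. Rpl10l, a testis-enriched paralogue of Rpl10, differed between genotypes by -0.11 in SOL and -0.063 in TA, and between muscles by -0.14 in Ctrl and -0.10 in mKO. Rps26, mutated in Diamond-Blackfan anaemia, differed by 0.058 and 0.021 between genotypes and by 0.044 and 0.0073 between muscles, in the same order. Rps6, the substrate of S6 kinase, differed by -0.15 and -0.015 between genotypes and by -0.0099 and 0.12 between muscles. Rpsa, also known as the laminin receptor, differed by -0.031 and -0.21 between genotypes and by 0.20 and 0.031 between muscles. Across the 11 tests of level, rhythm and interaction, 19 of 42 members were called in at least 1 and 23 in none. The tissue tests alone called 42.9% of all genes in Ctrl and 48.2% in mKO. The share of all genes called in at least 1 of the 11 tests was not counted, so the 19 are no result about the members.

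Genes that build or steer ribosomes give the surroundings of these values, from lists chosen by role. Mitochondrial ribosomal proteins, which belong to a separate ribosome in the organelle, were mostly higher in mKO where they were called. In SOL 13 of 76 rose and 0 fell (median 0.075), Mrps34 among them (0.21, limma adjusted p = 0.000179). In TA 21 rose and 1, Mrpl13, fell (median 0.060), and Mrpl14 rose by 0.31 (adjusted p = 7.49e-08). The medians of all genes were 0.00091 in SOL and 0.020 in TA, and the counts stand against the same 7.10% and 14.8% of all genes.

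In TA, 8 of 55 ribosome assembly factors (14.5%) fell and 0 rose (median -0.054), where 14.8% of all genes were called and 8.06% were called lower. Among the 8 were the nucleolar proteins Npm1 (-0.31, limma adjusted p = 0.00634) and Ncl (-0.22, adjusted p = 0.000751). In SOL 3 of 55 (5.45%) passed, where 7.10% of all genes did: Bop1 rose (0.16) and Riok2 (-0.25) and Rrp12 (-0.18) fell. Of 12 translation factors whose mRNAs carry TOP motifs, 4 (33.3%) fell in TA and 0 rose, beside the same 14.8% of all genes called: Eif4b (-0.16), Eef2 (-0.11, adjusted p = 0.00154), Nap1l1 (-0.16) and Eif3e (-0.13). In SOL only Eif4b passed (-0.14, adjusted p = 0.00407). Of 14 RNA polymerase I genes, which make the precursor of ribosomal RNA, 0 passed in SOL and 3 (21.4%) in TA, beside 7.10% and 14.8% of all genes. In TA Polr1a rose (0.24) and Znrd1 (-0.12) and Polr1b (-0.081) fell.

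Of 24 genes of the mTORC1 pathway and other control of ribosome synthesis, 4 passed in SOL (16.7%) and 7 in TA (29.2%), beside 7.10% and 14.8% of all genes. The mTOR inhibitor Deptor fell in both muscles (-0.31 in each), as did Mxi1 (-0.23 in SOL, -0.29 in TA), and the stress-induced mTORC1 inhibitor Sesn3 rose in both (0.25 and 0.21). Rptor, the scaffold of mTORC1, rose in SOL (0.15). Sesn1 (0.20), Max (0.15) and Mycn (0.17) rose in TA, where Larp1, which binds TOP mRNAs, fell (-0.12). Rpl36al, the only ribosomal protein outside the symbol rule that was measured here, did not pass between genotypes (0.043 in SOL, 0.053 in TA) and was higher in TA by 0.41 in Ctrl (adjusted p = 4.13e-05) and 0.42 in mKO (adjusted p = 2.83e-05).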

How the data were processed

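The 72 arrays measured SOL and TA of 36 mice, 1 array per muscle and animal. The authors deposited log2 signals from RMA, whose version is not stated, per the submitters' processing notes. The values were used as deposited, from 2.12 to 14.4, with array medians of 6.67 to 6.84 and no copy among the arrays (highest r 0.996). Of 21225 probe sets, 20239 had 1 symbol in the array's annotation and were tested, 0 had several, and 986 had none there. There were no detection calls, and precision is limited by the number of arrays. The labels name a separate animal for each array of a group.

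The members, lists and tests were chosen with earlier results of these data known. Named members are the paralogues, reference genes, Diamond-Blackfan genes and stalk or surface proteins, up to 6 called members per direction and test with the smallest p, and the 3 nearest where none passed. A gene named outside this rule was chosen after its values were seen.

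Tests ran in R 4.3.3 with limma 3.58.1, using lmFit and eBayes and checked on simulated data, with a term for each genotype and time, as the mean over 6 times. Tissue and interaction tests used TA minus SOL within animals, a pairing the labels state. Same-animal arrays deviated from their group means with r between -0.197 and 0.352 (median 0.046), and 11 of 36 pairs exceeded 0.1. Rhythm used a 24 h cosine and sine per genotype and a moderated F test. The Benjamini-Hochberg adjustment ran over the 20239 genes of each test. Alternatives were array-median scaling, a signal filter, array weights, an any-time F test, the identification series, replicate blocks and leaving out each animal.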

Additional observations from a re-analysis of the deposited data

How the results depend on the processing

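Of 939 counts of called members under alternatives, 863 were within 1.5 times those reported. Of 1549 values of called members, 1410 kept their direction and side of the threshold, 138 kept their direction without passing it, and 1 reversed: Rps19 in the tissue test of Ctrl was 0.11 among BM2 and BM2* animals alone (limma adjusted p = 0.520). Causes of these shifts were not tested. Part of the agreement was fixed in advance. A count of 0 that stayed 0 is among the counts within 1.5 times, and an amplitude cannot reverse. Leaving out an animal of another time does not change a difference at a single time. The F test of any time gives no amplitude, so it enters the counts and not the values. Subtracting array medians gave 0 members for genotype in SOL and 1 at TA ZT16. The filter at the median signal, which left 33 members, gave 2 for genotype in SOL and 2 for rhythm in SOL of mKO. Array weights gave 2 for genotype in SOL (10.5% of all genes), 7 in TA (26.6%), 0 for rhythm in TA of Ctrl, 1 in TA of mKO, 2 at SOL ZT16, 5 at TA ZT8 and 2 at TA ZT12. Without weights the genotype tests called 7.10% of all genes in SOL and 14.8% in TA. For the other counts with weights the share of all genes is not given here. The F test of any time gave 0 for rhythm in SOL of mKO and 0 in TA of Ctrl. The series as a covariate gave 1 for rhythm in SOL of Ctrl, 0 in TA of Ctrl and 1 at TA ZT16. BM3 animals alone gave 0 for genotype in SOL, 0 in TA and 8 in the tissue test of mKO. BM2 and BM2* animals alone, an alternative chosen after seeing the data like all those at single times, gave 0, 0, 3 in the tissue test of Ctrl and 2 in that of mKO. Leaving out each animal gave 0 to 1 for genotype in SOL, 3 to 5 in TA, 1 to 2 for rhythm in SOL of mKO, 0 to 1 in TA of Ctrl and in TA of mKO, 13 to 17 and 12 to 15 in the tissue tests of Ctrl and mKO, 0 to 1 at TA ZT8 and ZT12, and 0 to 2 at TA ZT16. Without the Ctrl ZT0 animal whose TA array held liver transcripts, the counts were 0 for genotype in SOL, 4 in TA, 17 and 14 in the tissue tests, 0 for rhythm in TA of Ctrl and 1 at TA ZT16.

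The replicate letters name different animals and were not used as pairs in the main tests. Deviations of Ctrl and mKO arrays with the same letter and time had a median r of 0.084 in SOL (over 0.1 in 9 of 18 pairs) and 0.161 in TA (12 of 18). Arrays of the same animal had a median of 0.046 (11 of 36). These values thus do not show that arrays with the same letter share nothing. With the letter within time as a replicate block, 1 member was called for genotype in SOL, 5 in TA and 0 in the interaction. With no replicate block, the 72 arrays as separate samples gave 15 members in the tissue test of Ctrl, 16 in that of mKO and 0 in the interaction.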
